A study of Mus musculus with 6 samples.

Results

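Markers of tendon and of the myotendinous junction, where muscle fibres pass their force to tendon, are described here in the vastus lateralis, one of the thigh's quadriceps muscles. They are 9 genes chosen by symbol, Tnmd, Kera, Scx, Fmod, Comp, Thbs4, Chad, Mkx and Tnxb, of the 17711 genes named on an Illumina mouse bead array. FRG1 is a gene that lies close to the repeats whose contraction is tied to facioscapulohumeral muscular dystrophy (FSHD). Muscle of transgenic mice with an excess of FRG1 (3 samples) was compared with muscle of wild type mice (3 samples). All 6 samples came from C57Bl/6J females aged 4 weeks, and each was put on 1 array. The labels call the FRG1 arrays Sample873, Sample874 and Sample871 and the wild type arrays Sample906, Sample872 and Sample923. Neither the promoter that drives the transgene nor the number of transgenic lines is given in the labels.

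Tendon is built by tenocytes, fibroblast-like cells that lay down parallel fibrils of type I collagen. The transcription factors scleraxis (Scx) and Mohawk (Mkx) act in tendon formation in the mouse, and tenomodulin (Tnmd), a membrane glycoprotein, is the most used marker of mature tendon cells. Small leucine-rich proteoglycans such as fibromodulin (Fmod) bind collagen and shape the growth of its fibrils, and the pentameric proteins COMP and thrombospondin 4 bind collagen as well. In a whole muscle these transcripts come from a minor part of the tissue, at the tendon ends and in connective tissue, so the array averages them over mostly muscle RNA. Fewer cells of a type and less RNA per cell cannot be told apart in such bulk samples.

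The single Frg1 probe was above background on 0 of the 6 arrays and gave raw signals of 42.3 ± 3.29 intensity units in FRG1 muscle and 40.9 ± 4.84 in wild type muscle (SD, n = 3 each). It therefore checks neither the transgene nor the labels. The summed signal of an array was 11232852 to 13062182 intensity units in FRG1 muscle and 10537335 to 12759000 in wild type muscle, and 19183 to 20000 probes and 17957 to 19076 probes were detected. All 7 muscle fibre markers listed were measured. Among them Ckm, the muscle creatine kinase, had a log2 intensity of 14.68 ± 0.12 in FRG1 muscle and 14.62 ± 0.05 in wild type muscle. Log2 intensity below means the background-corrected, quantile-normalized signal, a log2 fold change is FRG1 minus wild type, and a change passed when its adjusted p in limma was under 0.05 over the 19563 probes retained.

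Scleraxis is a basic helix-loop-helix factor, a class that binds E-boxes (CANNTG). Upstream sequences of Tnmd, Kera, Fmod and Chad, which fell in FRG1 muscle, are therefore shown, from the RefSeq promoter table (build GRCm38.p6, with entries for 6 of the 9 genes). Each runs 5′ to 3′ over the 250 bases before the annotated start, and capitals mark a match on either strand to an E-box (CANNTG), to CATCTG, to the Smad element CAGAC or to the Egr element GCGTGGGCG.
Tnmd (chrX:133850758-133851007, + strand): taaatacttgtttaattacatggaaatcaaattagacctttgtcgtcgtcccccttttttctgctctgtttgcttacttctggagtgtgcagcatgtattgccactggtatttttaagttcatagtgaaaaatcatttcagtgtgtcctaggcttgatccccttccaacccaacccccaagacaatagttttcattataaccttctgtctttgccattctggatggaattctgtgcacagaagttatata
Kera (chr10:97606955-97607204, + strand): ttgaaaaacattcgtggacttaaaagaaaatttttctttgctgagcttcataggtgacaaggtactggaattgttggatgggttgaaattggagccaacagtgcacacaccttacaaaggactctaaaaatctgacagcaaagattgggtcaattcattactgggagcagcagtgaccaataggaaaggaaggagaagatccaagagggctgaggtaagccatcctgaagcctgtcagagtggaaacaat
Fmod (chr1:134037004-134037253, + strand): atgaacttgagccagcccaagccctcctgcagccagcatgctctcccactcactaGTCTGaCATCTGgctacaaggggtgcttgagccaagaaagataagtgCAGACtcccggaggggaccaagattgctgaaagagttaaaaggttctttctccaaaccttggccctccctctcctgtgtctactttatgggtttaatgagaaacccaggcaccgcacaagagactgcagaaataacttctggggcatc
Chad (chr11:94564797-94565046, + strand): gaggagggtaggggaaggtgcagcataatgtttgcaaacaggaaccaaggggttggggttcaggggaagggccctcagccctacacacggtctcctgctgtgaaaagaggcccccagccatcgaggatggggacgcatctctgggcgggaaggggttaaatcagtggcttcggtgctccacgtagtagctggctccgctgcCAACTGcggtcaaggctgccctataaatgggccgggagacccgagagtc
The windows of Tnmd and Kera held none of these letters. That of Fmod held 1 E-box, which starts 189 bases before the start, reads CATCTG and so counts for both motifs, and 2 matches to CAGAC. That of Chad held 1 E-box, 49 bases before the start. The windows of Thbs4 and Tnxb, not shown, held 1 E-box and 2 matches to CAGAC each. Of all 32851 windows in the table, 66.2% held an E-box, 14.4% CATCTG, 42.2% CAGAC and 0.536% the Egr element, so an E-box in a window of this length is common.

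Of the 9 markers, 8 had a retained probe, and 6 of these fell in FRG1 muscle, 0 rose and 2 did not pass. Tnmd, Kera, Fmod, Chad, Comp and Mkx fell, and Scx and Tnxb did not pass. Across the array 7.23% of 10287 genes passed as lower and 7.53% as higher. The median log2 fold change of the 8 markers was -0.65, against -0.03 over all genes. The FRG1 and wild type arrays did not overlap in the same 6 markers, against 36.6% of all genes in either direction and 19.8% as lower. Leaving out 1 array changed how many markers passed as lower: it was 1 without FRG1 Sample871, 3 without FRG1 Sample874 and 4 without FRG1 Sample873. Among wild type arrays it was 2 with Sample906 left out, 5 with Sample923 left out and 6 with Sample872 left out. The sign of each of these 6 fold changes was negative in every such fit. Since the groups do not overlap in these markers, leaving out 1 array could hardly turn it, so the sign is no further check.

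**Figure D1:**
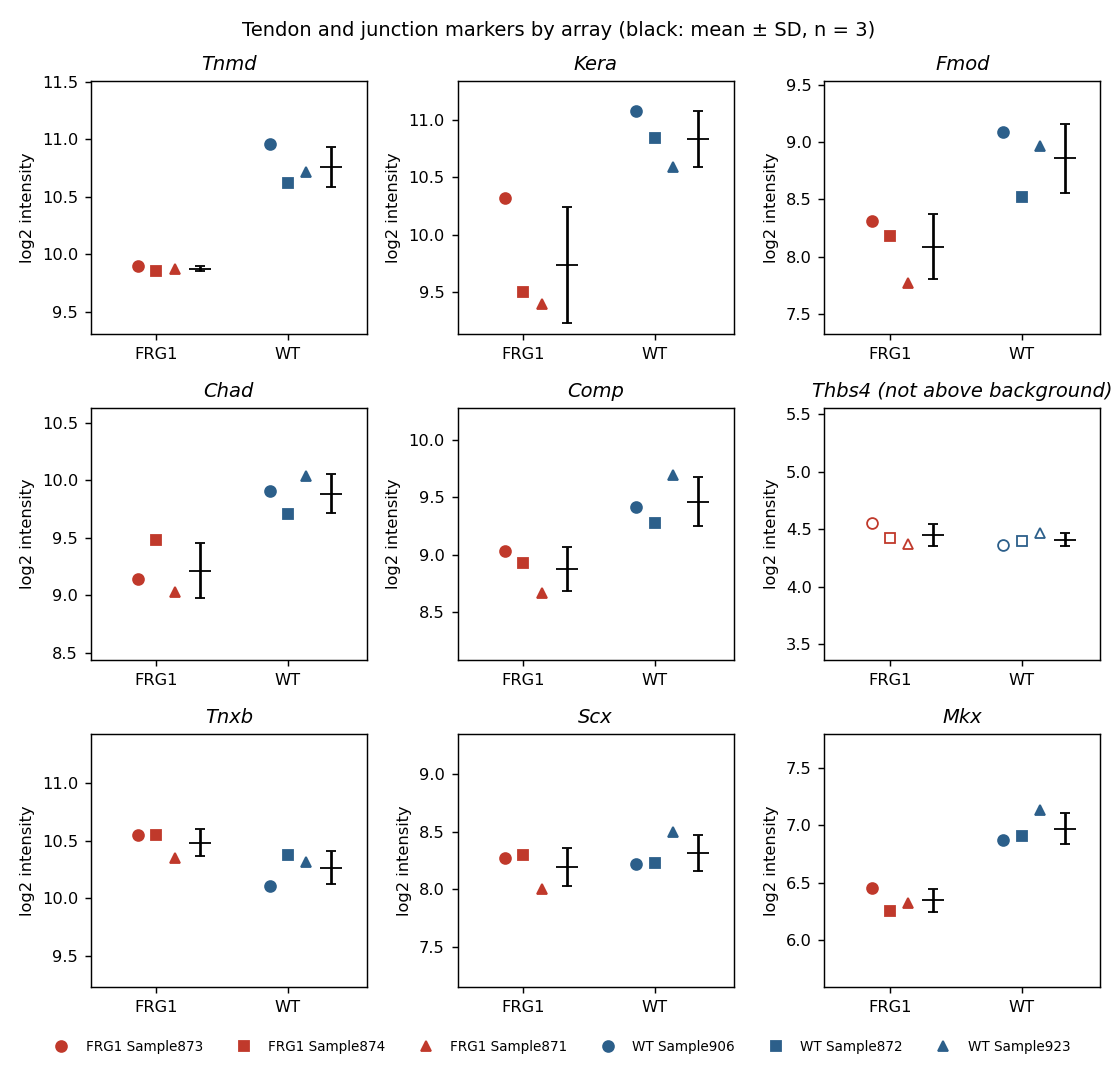
Log2 intensity of the 9 markers on each array, with FRG1 muscle left of wild type muscle, 1 symbol per array and the mean ± SD (n = 3) in black; every panel spans the same height on the log2 scale. The groups are apart for Tnmd, Kera, Fmod, Chad, Comp and Mkx and overlap for Scx, Tnxb and Thbs4, whose open symbols were not above background.

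Tnmd, the tenocyte membrane protein, had log2 intensities of 9.89, 9.86 and 9.88 in FRG1 muscle (Sample873, Sample874 and Sample871), against 10.96, 10.62 and 10.72 in wild type muscle (Sample906, Sample872 and Sample923). The 3 FRG1 arrays lay within a few hundredths of each other and all below the wild type arrays, with a gap of 0.72 between the groups. Before normalization the raw signals were 1074, 1024 and 921.1 intensity units in FRG1 muscle and 1848, 1749 and 1472 in wild type muscle. The log2 fold change was -0.89 ± 0.13 (SE; limma adjusted p = 0.00178), a level 1.85-fold higher in wild type. Tnmd was the one marker that passed under all 18 alternative settings, with log2 fold changes of -0.99 to -0.79.

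Among the leucine-rich repeat proteins of the matrix, Kera, keratocan, a keratan sulphate proteoglycan of cornea and tendon, changed most. Its log2 intensities were 10.32, 9.50 and 9.40 in FRG1 muscle, against 11.07, 10.84 and 10.59 in wild type muscle. FRG1 Sample873 was high within its group and came within 0.27 of the lowest wild type array, while the other two FRG1 arrays lay over 1 log2 unit below it. The log2 fold change was -1.09 ± 0.23 (SE; limma adjusted p = 0.0132), or 2.13-fold higher in wild type. The call was lost under 4 of 18 alternatives, among them leaving out FRG1 Sample871 or wild type Sample906.

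Fmod, fibromodulin, had log2 intensities of 8.31, 8.19 and 7.77 in FRG1 muscle, against 9.09, 8.52 and 8.96 in wild type muscle. The groups did not overlap, with FRG1 Sample871 the lowest array and wild type Sample872 the nearest to the FRG1 arrays. Fmod changed by -0.77 ± 0.19 on the log2 scale (SE; limma adjusted p = 0.0234). Chad, chondroadherin, a collagen-binding leucine-rich repeat protein first known from cartilage, had log2 intensities of 9.14, 9.48 and 9.03 in FRG1 muscle, against 9.91, 9.70 and 10.04 in wild type muscle. All FRG1 arrays were below all wild type arrays, by 0.22 at the nearest. Chad changed by -0.67 ± 0.15 on the log2 scale (SE; limma adjusted p = 0.0186). Fmod and Chad each lost the call under 4 of 18 alternatives.

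Kera and Fmod belong to the small leucine-rich proteoglycans. Chad, which fell, is often placed in that family too and is left out of the count that follows. Also measured were 8 further genes of the family: Dcn, Bgn, Lum, Ogn, Prelp, Aspn, Omd and Podn. This subset was singled out after its values were seen. In FRG1 muscle 0 of the 8 passed, with log2 fold changes of -0.39 to 0.40, 3 below 0 and 5 above, and a lowest limma adjusted p of 0.102 (1 had an unadjusted p under 0.05). Dcn, decorin, the widespread member of the family in connective tissue, had log2 intensities of 13.51 ± 0.10 in FRG1 muscle and 13.48 ± 0.17 in wild type muscle (SD, n = 3 each). Lum, lumican, had a log2 fold change of 0.40 ± 0.15 (SE; adjusted p = 0.102). Whether the changes of Kera and Fmod differ from those of the other proteoglycans was not tested.

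Of the pentameric proteins, Comp, cartilage oligomeric matrix protein, had log2 intensities of 9.03, 8.93 and 8.67 in FRG1 muscle, against 9.41, 9.28 and 9.70 in wild type muscle. The groups were 0.24 apart at the nearest arrays, FRG1 Sample873 and wild type Sample872. Comp changed by -0.59 ± 0.15 on the log2 scale (SE; limma adjusted p = 0.0309), and the call was lost under 7 of 18 alternatives, the most of any marker. Thbs4, thrombospondin 4, a relative of COMP, was above background on 0 of the 6 arrays. Its only probe gave raw signals of 45.85, 40.88 and 35.16 intensity units in FRG1 muscle and 36.75, 37.24 and 39.49 in wild type muscle, with a lowest detection p of 0.198. No fold is given for it, and the probe was not well above background in either group.

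Tnxb, tenascin X, a large glycoprotein of loose connective tissue and muscle sheaths as well as tendon, had 6 probes, of which 4 were retained. The brightest had log2 intensities of 10.55, 10.55 and 10.35 in FRG1 muscle, against 10.11, 10.38 and 10.32 in wild type muscle. FRG1 Sample871 lay between the wild type arrays, so the groups overlapped. Its log2 fold change was 0.22 ± 0.13 (SE; 95% interval -0.07 to 0.51; limma adjusted p = 0.304). The 4 retained Tnxb probes had fold changes of 0.06 to 0.29 on the log2 scale, and 0 passed in limma (lowest adjusted p = 0.187, and 0 with an unadjusted p under 0.05). In 2 of them the FRG1 arrays were all above the wild type arrays, by 0.09 and 0.06. Of all genes 36.6% had groups that did not overlap, in either direction.

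The 2 transcription factors differed in their calls. Scx, scleraxis, had log2 intensities of 8.27, 8.30 and 8.003 in FRG1 muscle, against 8.22, 8.23 and 8.50 in wild type muscle. The groups overlapped, with 2 FRG1 arrays above 2 of the wild type arrays. The log2 fold change was -0.12 ± 0.14 (SE; 95% interval -0.43 to 0.18; limma adjusted p = 0.603), and its sign turned, to 0.01, when arrays were scaled to the median of all probes. Mkx, Mohawk, a homeobox factor of collagen fibril growth in tendon, had log2 intensities of 6.46, 6.26 and 6.33 in FRG1 muscle, against 6.87, 6.91 and 7.13 in wild type muscle. All FRG1 arrays were below all wild type arrays, with a gap of 0.42. Mkx changed by -0.62 ± 0.13 on the log2 scale (SE; limma adjusted p = 0.0104), a call lost without FRG1 Sample871 and with scaling to the median of all probes. The Mkx probe was dim, and the offset added before log2 understates fold changes of dim probes.

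**Figure D2:**
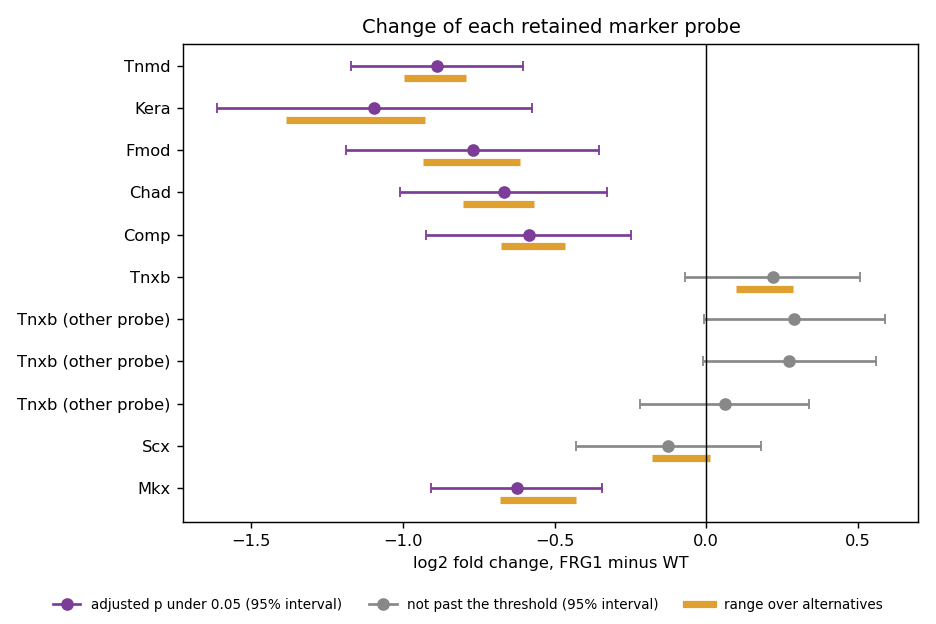
Log2 fold change (FRG1 minus wild type) of the 11 retained probes of the 8 measured markers, with 95% intervals from limma; purple points passed the threshold, and orange bars give the range over the 18 alternatives for the probe that represents a gene. The intervals of Tnmd, Kera, Fmod, Chad, Comp and Mkx lie below 0, and those of Scx and the Tnxb probes include 0.

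Tnmd and Mkx were also set against Scx and Tnxb within each array, on the normalized log2 values. Such a ratio cancels only a shift shared by both probes, and its difference between the groups restates the fold changes given above. The pairs were chosen after the calls were seen, each a marker that fell over one that did not pass, so that a lower ratio in FRG1 muscle follows in part from the choice, and the ratios are given as a description. The log2 ratio of Tnmd over Scx was 1.62, 1.56 and 1.87 in FRG1 muscle, against 2.74, 2.39 and 2.22 in wild type muscle. The ratio was lower on every FRG1 array, and the difference of means was -0.76. The log2 ratio of Mkx over Scx was -1.82, -2.04 and -1.68 in FRG1 muscle, against -1.35, -1.32 and -1.37 in wild type muscle, a difference of -0.50. The log2 ratio of Tnmd over Tnxb was -0.66, -0.69 and -0.47 in FRG1 muscle, against 0.85, 0.24 and 0.40 in wild type muscle, a difference of -1.11. In all 3 ratios the groups did not overlap. Nor did they in Tnmd and Mkx alone, or in 36.6% of all genes (either direction). The ratios share probes, so they are not separate results. These ratios compare the same 2 probes between arrays and say nothing of which transcript was more abundant.

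Among the 3 FRG1 arrays most markers were lowest on the same one. Of the 8 measured markers, 6 had their lowest FRG1 value on Sample871 and 2 on Sample874. Averaged over the 8 markers, the log2 deviation from the wild type mean was -0.42 in FRG1 Sample873, -0.54 in Sample874 and -0.74 in Sample871, against 0.04, -0.11 and 0.07 in wild type Sample906, Sample872 and Sample923. Kera and Fmod spread most among the FRG1 arrays and Tnmd least, with SDs of 0.50, 0.28 and 0.02. Among the 3 wild type arrays no one was the lowest for most markers. The lowest wild type value was on Sample872 for 4 markers, on Sample906 for 3 and on Sample923 for 1.

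**Figure D3:**
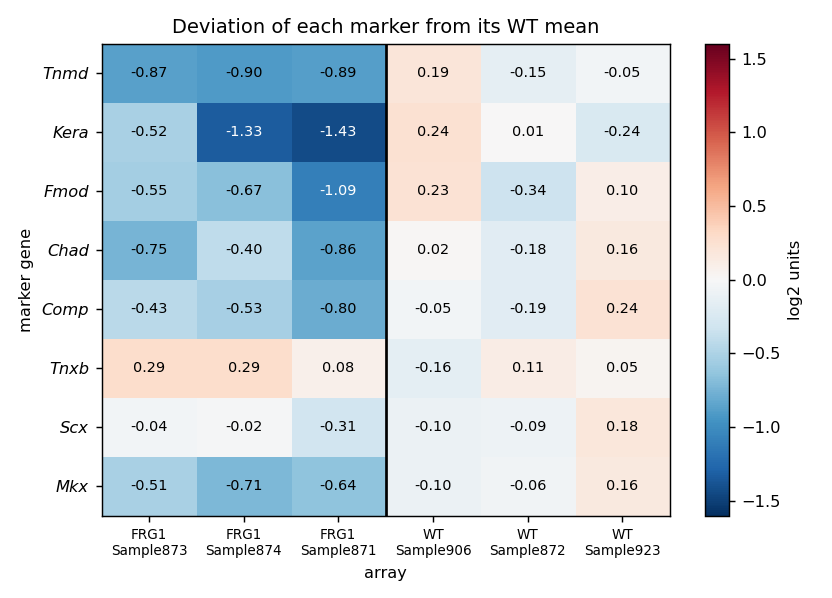
Deviation of each measured marker (rows) on each array (columns) from its wild type mean, in log2 units, blue below and red above, with FRG1 arrays left of the black line. Kera reaches -1.43 on FRG1 Sample871 and -0.52 on FRG1 Sample873, while Tnmd lies between -0.90 and -0.87 on the 3 FRG1 arrays.

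Over the 6 arrays the genes whose pattern was most like Tnmd were Dennd6b (Pearson r = 0.997), Gngt2, Tpcn1, Pxn, Sox13, Fundc1, Slitrk1 and Abcd3 (r = 0.994), of 9001 genes above background on all arrays. Among the same 9001 genes Mkx ranked 530 in likeness to Tnmd (r = 0.914), Fmod 610, Chad 735, Kera 779 and Comp 927. Scx ranked 3480 (r = 0.383) and Tnxb 7917 (r = -0.815). These values describe 6 arrays in 2 groups and mostly follow the difference between the groups, since all of the 8 most similar genes passed as lower.

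Other matrix genes of tendon did not move as a whole. Of 36 listed, 31 were measured, 1 rose, 3 fell and 27 did not pass, with a median log2 fold change of -0.08. Across all genes 7.53% passed as higher and 7.23% as lower, so these counts are close to the share of all genes. Cilp2, a cartilage intermediate layer protein, fell, with log2 intensities of 9.61, 9.35 and 9.19 in FRG1 muscle, against 10.27, 10.28 and 10.25 in wild type muscle (log2 fold change -0.89 ± 0.13, SE; limma adjusted p = 0.00241). Its relative Cilp rose, with 7.78, 7.64 and 7.97 in FRG1 muscle, against 5.36, 5.92 and 5.81 in wild type muscle (log2 fold change 2.10 ± 0.17; adjusted p = 7.5e-05). The groups were well apart in both genes, and both calls held under all 18 alternatives. Col1a1, the main chain of type I collagen, fell by 0.62 ± 0.18 on the log2 scale (limma adjusted p = 0.0443, lost under 8 of 18 alternatives), and P4ha1, a subunit of the prolyl hydroxylase of collagen, fell by 0.51 ± 0.12 (adjusted p = 0.0243, lost under 4). Without FRG1 Sample873, FRG1 Sample871 or wild type Sample906, 1 gene of this list fell in place of 3. Of the 11 collagen chains of this list that were measured, Col1a1 was the only one that passed, and their log2 fold changes ran from -0.62 to 0.46. Col1a2, the other chain of type I collagen, had a log2 fold change of -0.43 ± 0.16 that did not pass (limma adjusted p = 0.112).

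Among the regulators of tendon formation, 18 of 26 listed genes were measured, 1 rose, 1 fell and 16 did not pass (median 0.12 on the log2 scale). These counts too are close to the 7.53% of all genes that passed as higher and the 7.23% that passed as lower. Sox9, a factor shared by cartilage and tendon attachment cells, rose, with log2 intensities of 8.23, 8.11 and 8.49 in FRG1 muscle, against 7.12, 7.49 and 7.57 in wild type muscle (log2 fold change 0.88 ± 0.16, SE; limma adjusted p = 0.00582). Smad3, which carries signals of transforming growth factor beta, fell, with a log2 fold change of -0.49 ± 0.13 (adjusted p = 0.0313). That call was lost under 5 of 18 alternatives, namely without FRG1 Sample873, FRG1 Sample874, FRG1 Sample871 or wild type Sample906 and with scaling to the median of all probes. Without wild type Sample906, Nfatc4, a calcineurin-regulated factor, passed as lower in its place. With all arrays Nfatc4 and Tcf12, a partner of basic helix-loop-helix factors, had log2 fold changes of -0.43 ± 0.17 and 0.29 ± 0.12 and did not pass (limma adjusted p = 0.126 and 0.149), though another of the 3 retained Tcf12 probes did (0.89 ± 0.19).

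On the muscle side of the junction 21 of 26 listed genes were measured, 5 rose, 2 fell and 14 did not pass, with a median of 0.10 on the log2 scale. Of all genes 7.53% passed as higher and 7.23% as lower. The list includes stretch-responsive and adhesion genes that are also active elsewhere in the fibre. Adamts20, a secreted metalloprotease, rose most, with log2 intensities of 8.09, 8.30 and 8.08 in FRG1 muscle, against 6.31, 6.57 and 6.75 in wild type muscle (log2 fold change 1.61 ± 0.14, SE; limma adjusted p = 0.000138). Csrp3, muscle LIM protein, Ankrd1, a stretch-responsive ankyrin repeat protein, and Nes, the intermediate filament nestin, rose by 1.40 ± 0.20, 1.21 ± 0.14 and 1.16 ± 0.17 on the log2 scale. The lower 2 were Lamb2, a laminin chain, at -0.65 ± 0.16, and Pxn, the focal adhesion protein paxillin, at -0.46 ± 0.12 on 1 of its 2 retained probes, the other having a log2 fold change of -0.09. Itga7, the laminin-binding integrin chain of muscle, is counted as not passing by its brightest probe (0.28 ± 0.13), while another retained probe passed as lower (-1.099, limma adjusted p = 0.00177). Without FRG1 Sample873 or Sample871 0 fell, and 1 fell without FRG1 Sample874, wild type Sample906 or wild type Sample872, while 4 or 5 rose in each of those fits. Col22a1, a collagen of the junction itself, was not analysed here.

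**Figure D4:**
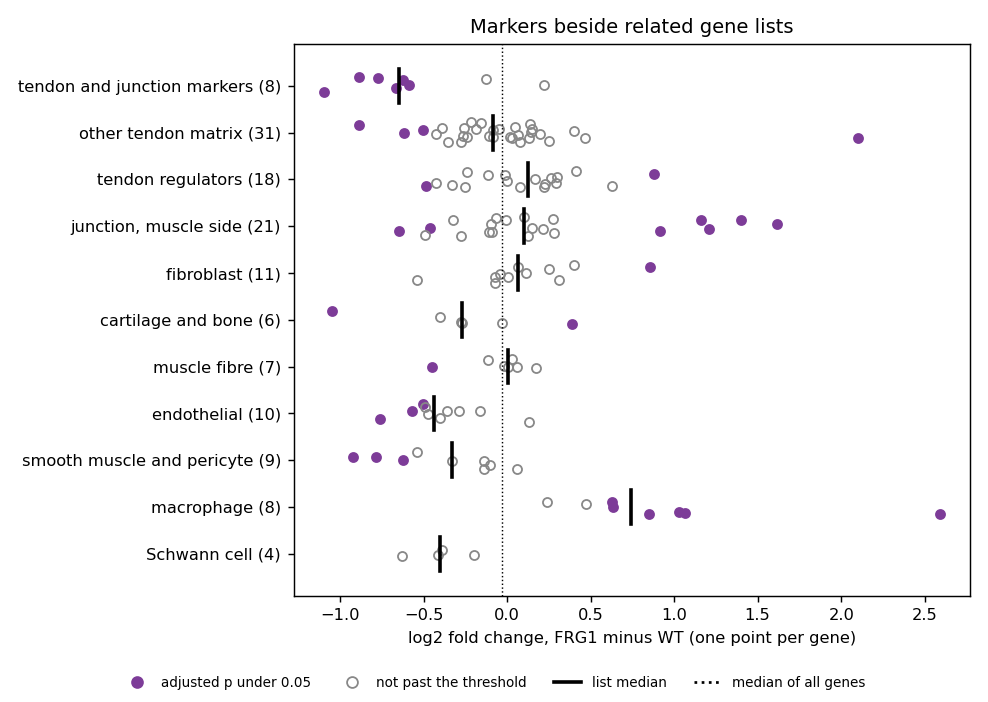
Log2 fold change (FRG1 minus wild type) of every measured gene in the marker set and in 10 related lists, 1 point per gene and the number measured in brackets; filled points passed the threshold, black bars are list medians and the dotted line is the median of all genes. The tendon and junction markers have a median of -0.65, the other tendon matrix genes -0.08 and the macrophage markers 0.74.

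Markers of other cell types that a muscle sample can hold were given the same comparison, and their part in the fall of the tendon markers was not tested. Since 7.53% of all genes passed as higher and 7.23% as lower, 1 call in so short a list says little about the list. For comparison, the linear intensities of the 8 tendon markers summed to 4278 to 5408 units in FRG1 muscle and 6853 to 7719 in wild type muscle. Kera and Tnmd, both with a mean log2 intensity of 10.8, weighed most in the wild type sum. Fibroblast markers had 11 of 14 measured, 1 rose and 0 fell (median 0.06 on the log2 scale), with summed intensities of 7765 to 8883 in FRG1 muscle and 6626 to 7690 in wild type muscle. Bright genes weigh most in such a sum, here Smoc2 and Mfap5, with mean log2 intensities of 11.08 and 10.71 in FRG1 muscle. In wild type muscle these means were 10.83 and 9.86, and 4 of the 11 genes had fold changes below 0. Mfap5, a microfibril protein, rose by 0.86 ± 0.18 on the log2 scale (limma adjusted p = 0.0134). That call was lost without FRG1 Sample873, FRG1 Sample871 or wild type Sample906 and with no detection filter. Pdgfra, the receptor that marks muscle fibroblasts, had a log2 fold change of -0.54 ± 0.16 that did not pass (limma adjusted p = 0.0556). It passed as lower under 7 of 18 alternatives, while its other retained probe had a log2 fold change of -0.07. Cartilage and bone markers had 6 of 17 measured, 1 higher (Sox6, a call lost with any 1 array left out and held by 1 of its 4 retained probes) and 1 lower, and summed to 333.2 to 373.6 units in FRG1 muscle and 384.3 to 415.6 in wild type muscle. Col2a1, the collagen of cartilage, fell, with log2 intensities of 5.47, 5.09 and 5.08 in FRG1 muscle, against 5.95, 6.48 and 6.35 in wild type muscle (limma adjusted p = 0.00351). Another 8 genes of that list, Matn1, Matn3, Hapln1, Cnmd, Col9a1, Ibsp, Sp7 and Dmp1, had probes that were above background on at most 2 of the 6 arrays.

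Some vessel markers fell too. Endothelial markers had 10 of 10 measured, 0 rose and 3 fell, namely Cldn5, Eng and Cdh5, with a median of -0.44 on the log2 scale. That count was 0 without FRG1 Sample871 and 1 without FRG1 Sample873 or any 1 wild type array, and 0 with no detection filter. Over all genes 7.53% passed as higher and 7.23% as lower with all arrays. The endothelial markers summed to 3419 to 4376 units in FRG1 muscle and 4511 to 5332 in wild type muscle. Of 9 smooth muscle and pericyte markers measured, 0 rose and 3 fell, Abcc9 (2 of its 3 retained probes), Mylk and Myh11 (median -0.33), with sums of 5587 to 6326 units in FRG1 muscle and 6356 to 8290 in wild type muscle. The Myh11 call was lost under some alternatives, among them leaving out FRG1 Sample873 or Sample871. Rgs5 is counted as not passing by its brightest probe (0.06 ± 0.35), while its other retained probe passed as lower (-0.60, limma adjusted p = 0.0133). Of the macrophage markers most rose, with 8 of 10 measured, 6 higher and 0 lower (median 0.74) and sums of 3605 to 4876 units in FRG1 muscle, against 1602 to 1758 in wild type muscle. Lgals3 and Lyz2, with mean log2 intensities of 10.75 and 10.13 in FRG1 muscle, weighed most in the FRG1 sum. Of 4 Schwann cell markers measured 0 passed in limma (lowest adjusted p = 0.112, 2 with an unadjusted p under 0.05), and of the 7 muscle fibre markers 1 passed, Myh4, the type IIB myosin heavy chain, at -0.45 ± 0.13 on the log2 scale, a call lost under 7 of 18 alternatives. Muscle fibre markers summed to 148400 to 164600 units in FRG1 muscle and 151900 to 161700 in wild type muscle.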

How the data were processed

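Total RNA of 6 muscle samples was measured on Illumina bead arrays. The authors deposited, per the file headers, unnormalized intensity values of 46632 probes per array, each beside a detection p-value. A second deposited table holds the authors' processed intensity, on a linear scale with values below 0, used as an alternative only. The submitters' processing notes name lumi, without settings.

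With limma 3.58.1 (R 4.3.3), neqc corrected background (negative controls inferred from detection p, offset 16), applied quantile normalization and took log2. The 19563 probes with detection p under 0.05 on at least 3 of 6 arrays were retained and fitted with lmFit and eBayes on group alone. Two-sided p-values were adjusted by Benjamini-Hochberg over all of them. Probes were named by the platform annotation, updated through Entrez genes to RefSeq (29921 probes matched), and the retained probe with the highest mean stands for a gene.

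The labels number the samples without stating that each is a separate animal, so p-values reflect only the spread among these samples, which may be technical, and the number of arrays limits precision. The members, lists and motifs were chosen with earlier results of these data known, and their calls are no independent evidence. All 9 members, up to 4 genes with the smallest p of each list and the 8 genes most like Tnmd were named by rule. Dcn, Bgn, Ogn, Prelp, Aspn, Omd, Podn, Lamb2, Itga7, Col1a2, Rgs5 and the cartilage and bone genes below background were named after their values were seen. No slide or scan position is given, so no block was fitted.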

Additional observations from a re-analysis of the deposited data

How the results depend on the processing

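Over 18 alternatives the fold changes of the 8 measured markers kept their sign, except that of Scx, which was 0.01 on the log2 scale with arrays scaled to the median of all probes. That scaling, chosen after seeing the data, moved the all-gene median by 0.126 on the log2 scale, and the split of called probes became 1923 higher and 507 lower (79.1% higher), against 1389 higher and 1313 lower (51.4% higher). It left 4 markers lower, with 1 other tendon matrix gene, 0 regulators, 0 junction genes and 0 endothelial markers lower, and relative to all genes the markers' median was -0.619, against -0.617. With no detection filter 2 markers, Tnmd and Mkx, passed as lower. Leaving out 1 sample gave 1 to 6 markers lower, a marker median of -0.72 to -0.56 and 1161 to 2660 probes past the threshold, in fits with fewer arrays. The signs in those fits are no further check for the markers whose groups do not overlap. The remaining alternatives left 6 markers lower, and 0 were higher under any alternative; in the limma fit reported, 0 had an unadjusted p under 0.05 as higher. No paired analysis was possible because the groups share no sample numbers. Thbs4 and the dim Tnxb probes are limited by signal over background.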
